A study of Mus musculus with 16 samples.

Results

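CpGs at which clonal lines of the same parental culture had reached opposite extremes of DNA methylation were described here. Methylation had been measured by target capture bisulfite sequencing (tcBS-seq) in immortalised mouse embryonic fibroblasts (MEFs) from a pair of sibling C57BL/6J embryos of stage E13.5. Each embryo gave 1 parental culture, MEF-1 or MEF-2, immortalised by serial passaging, and 7 clonal lines were grown from single cells sorted from each culture. None of these 16 cell lines received a further treatment, each was sequenced once, and every clonal line is 1 clone. Levels of a CpG are the percentage of its reads called methylated, and the table of the series holds 1203687 CpGs with 10 or more reads in each of the 16 libraries, on 16 chromosomes.

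A CpG was taken as split when the MEF-2 parental level lay from 10 to 90%, at least 1 of the 7 MEF-2 clonal lines was at 10% or less (low) and at least 1 was at 90% or more (high). CpGs at which both parental lines lay at 40 to 60% were left out, which removed 997 CpGs that otherwise met these conditions. The rule gave 12684 split CpGs, which is 1.05% of the table and 3.10% of the 408631 CpGs that met both parental conditions. The remaining 395947 of those are called comparison CpGs. Split CpGs were chosen by the MEF-2 parental and clonal levels and by the MEF-1 parental level, so the MEF-2 levels at these CpGs are a description with no test, and a MEF-2 line was tested only where it was left out of the rule.

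A CpG in 1 DNA molecule is either methylated or not, and maintenance methylation copies its state to the new strand at each cell division. In a clone grown from 1 cell, faithful copying therefore leaves a CpG unmethylated, methylated on 1 of the parental copies, or methylated on both, so that bulk levels lie near the bottom, the middle or the top of the scale. A mixed parental culture can show any level. Split CpGs are those where sister clones ended at the bottom and at the top.

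The libraries held 59243669 to 90633091 calls (reads over CpGs), and the median coverage of a split CpG was 25 to 38 reads per library. At 9761 split CpGs a low and a high line each had 20 reads or more, and at 5659 each had 30 or more. At 1289 split CpGs (10.2%) a line at exactly 0 and a line at exactly 100% were both present. The count depended on depth: 5675 CpGs were split when 20 reads were required in every library (2.75% of those meeting the parental conditions), and 31383 when every library was thinned to 10 reads per CpG (5.86%). Promoters of fibroblast marker genes had mean levels of 31.9 to 36.1% over 11 genes in the MEF-2 libraries, those of blood markers 59.2 to 70.4% over 5, of endothelial markers 63.2 to 80.2% over 3, of epithelial markers 35.3 to 43.1% over 8 and of neural markers 32.1 to 41.0% over 2. Methylation alone was measured, so no expression of these markers is given.

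All 7 clonal lines were at an extreme at 137 split CpGs (1.08%). For each number of high lines that occurred, the CpG with the deepest shallowest library is printed, because these show the split most plainly. Bases are from the GRCm38 (mm10) reference on the + strand, 5′ to 3′, and capitals mark the split CpG.
Park7 intron, 1 high line, chr4:150910124-150910185: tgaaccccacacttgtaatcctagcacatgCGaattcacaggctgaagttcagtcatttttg
Upstream of Wipf3, 2 high lines, chr6:54429045-54429106: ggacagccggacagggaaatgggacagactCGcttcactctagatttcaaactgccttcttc
C1qtnf4 intron, 4 high lines, chr2:90887435-90887496: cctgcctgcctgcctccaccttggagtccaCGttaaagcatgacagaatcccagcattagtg
Ccdc181 intron, 5 high lines, chr1:164276051-164276112: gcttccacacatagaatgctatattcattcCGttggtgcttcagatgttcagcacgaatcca
D430041D05Rik intron, 6 high lines, chr2:104220274-104220335: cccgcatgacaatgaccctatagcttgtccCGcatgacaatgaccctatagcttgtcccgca

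The Park7 CpG (chr4:150910154) lay in an intron of the gene for DJ-1, a protein that protects against oxidative stress, 228 bp before the nearest annotated start. MEF-2 lines 1 to 7 had 5.13, 9.62, 2.15, 3.06, 96.4, 9.71 and 4.42% there, from 78 to 113 reads. Line 5 alone was methylated, and the parental line had 22.4% (95% Wilson interval 15.8 to 30.8, 116 reads). The 7 MEF-1 lines had 10.1 to 51.7% at the same CpG (mean 30.5% ± 18.7, SD, n = 7), and it lies in a repeat.

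At the CpG near Wipf3 (chr6:54429075), 528 bp before the start of this actin regulator and inside an annotated noncoding gene, MEF-2 lines 1 to 7 had 6.45, 4.00, 6.67, 8.33, 100, 97.1 and 0% from 24 to 34 reads. The limit for line 7, with 0 of 33 reads methylated, is 9.09%. Lines 5 and 6 were high and the other 5 low. The parental line had 16% (95% Wilson interval 6.40 to 34.7).

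The C1qtnf4 CpG (chr2:90887465) lies 1605 bp inside a gene for a secreted protein of the C1q and tumour necrosis factor related family. Lines 1 to 7 had 2.04, 93.1, 94.4, 100, 7.5, 4.44 and 94.8% there. Lines 2, 3, 4 and 7 were methylated and lines 1, 5 and 6 were not, a grouping that recurs below. The MEF-1 lines had 25.6 to 55.8% (mean 45.2% ± 10.3, SD, n = 7) and did not differ beyond read sampling.

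At the Ccdc181 CpG (chr1:164276081), 496 bp after a start, the values of lines 1 to 7 were 95.3, 96.3, 100, 90.5, 0, 5.00 and 90.2%. Only lines 5 and 6 were low. With 0 of 51 reads methylated, line 5 could have a level of up to 5.88%.

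The CpG in D430041D05Rik (chr2:104220304) was the deepest of these, with 160 to 250 reads per clonal line. Lines 1 to 7 had 92.6, 93.1, 92.5, 93.0, 94.1, 6.40 and 92.2%, so that line 6 alone was low, beside a parental level of 73.4% (95% Wilson interval 68.0 to 78.1). Its printed window holds a stretch of 34 bases more than once, and reads of neighbouring copies could be misplaced. The part of such misplacement in the levels was not tested.

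**Figure D1:**
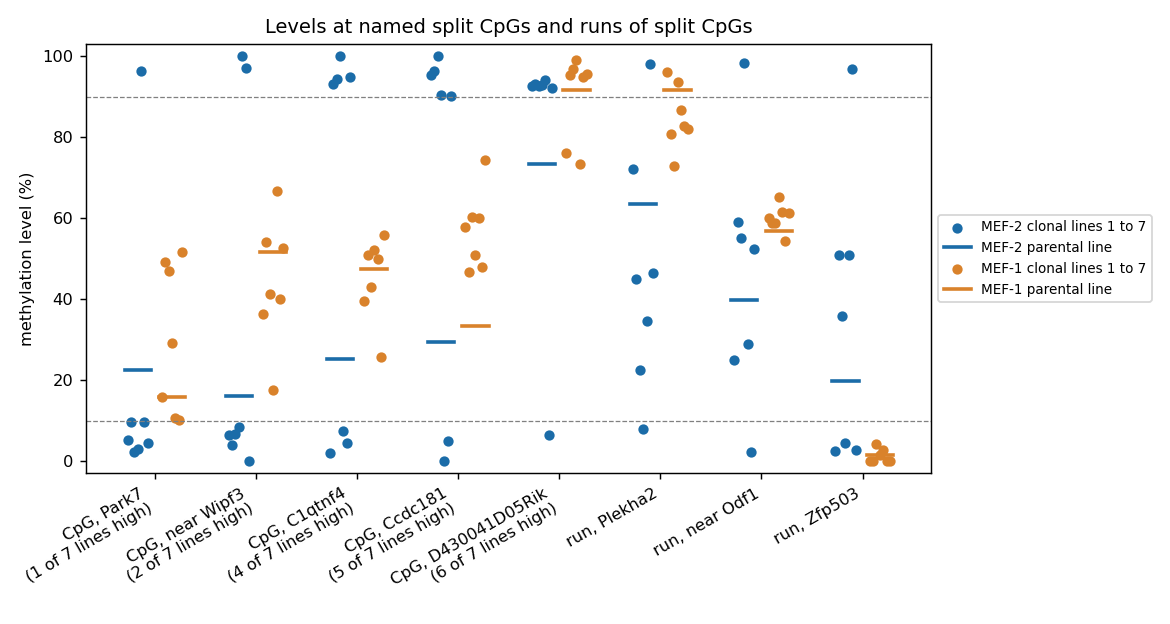
Methylation level (%, y axis) of the 7 MEF-2 and 7 MEF-1 clonal lines (points) and of each parental line (bars) at 5 CpGs with all MEF-2 lines at an extreme and in 3 runs of split CpGs. Dashed lines mark 10 and 90%. MEF-2 lines lie at both ends at each item, and in the Zfp503 run every MEF-1 line lies at or under 4.26%.

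Split CpGs mostly stood alone. A run was defined as at least 3 split CpGs that follow each other in the table with no other measured CpG between and at most 500 bp apart. There were 27 runs, 23 of 3 CpGs, 3 of 4 and 1 of 6, beside 433 pairs, and 11731 split CpGs (92.5%) had no split neighbour of this kind. In 17 runs a line was low at every CpG, in 14 a line was high at every CpG, and 11 had both. Without line 4 there were 10 runs and without line 6 there were 14. The longest run and 5 of the 12 largest runs in which 1 line was low and another high throughout are printed, from the same reference and strand, with the split CpGs in capitals.
Plekha2 intron, chr8:25068262-25068387: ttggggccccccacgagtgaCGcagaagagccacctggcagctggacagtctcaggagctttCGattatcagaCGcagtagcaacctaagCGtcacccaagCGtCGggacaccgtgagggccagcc
Gm35167, chr15:38199277-38199349: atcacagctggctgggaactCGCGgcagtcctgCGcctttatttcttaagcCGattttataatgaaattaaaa
Gm26763, chr4:145640696-145640747: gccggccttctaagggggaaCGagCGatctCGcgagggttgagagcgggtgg
Babam2 intron, chr5:31804910-31804962: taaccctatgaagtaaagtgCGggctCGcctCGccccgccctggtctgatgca
Zfp503 coding exon, chr14:21985221-21985274: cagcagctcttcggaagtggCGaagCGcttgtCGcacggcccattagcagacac
No gene, nearest start Srl, chr16:4475191-4475244: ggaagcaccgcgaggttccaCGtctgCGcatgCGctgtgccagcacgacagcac

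The longest run held 6 CpGs over 86 bp (chr8:25068282-25068367) in an intron of Plekha2, which encodes a phosphoinositide-binding adaptor. Over the pooled calls of the run, MEF-2 lines 1 to 7 had 72.2, 45.1, 22.6, 8.03, 34.5, 98.2 and 46.5%. Line 6 was high at all 6 CpGs and line 4 low at 5, while the other lines lay between. The parental line had 63.5% (95% Wilson interval 55.9 to 70.4, 167 calls pooled over the 6 CpGs). The same fragment can give several of these calls, so the interval is too narrow. In the MEF-1 lines the run was at 72.9 to 96.0% (mean 85.0% ± 7.90, SD, n = 7), and the MEF-1 parental line had 91.7%.

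The run in the long noncoding RNA gene Gm35167 (4 CpGs over 33 bp, chr15:38199297-38199329) had 25, 59.0, 55, 98.3, 28.8, 2.34 and 52.3% in lines 1 to 7. Line 4 was high and line 6 low at every CpG, the reverse of the Plekha2 run. The MEF-1 lines kept to 54.3 to 65.3% (mean 60.02% ± 3.33, SD, n = 7), and none of the 4 CpGs varied between them beyond read sampling.

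In the run in Gm26763, also a long noncoding RNA gene (3 CpGs over 12 bp, chr4:145640716-145640727), the lines had 19.9, 61.6, 43.0, 7.29, 53.7, 93.8 and 36.6%. Line 4 was low and line 6 high. MEF-1 lines had 85.4 to 97.8%, above the MEF-2 parental level of 24.0% (95% Wilson interval 18.4 to 30.8). This interval also takes the pooled calls of the 3 CpGs as independent and is too narrow.

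The Babam2 run (3 CpGs over 13 bp, chr5:31804930-31804942) lies in an intron of a gene for a subunit of a BRCA1-containing complex. Lines 1 to 7 had 53.1, 56.7, 83.6, 93.2, 34.3, 4.59 and 92.5%. Line 7 was high and line 6 low at all 3 CpGs, and all 3 also varied between the MEF-1 lines (31.3 to 68.6%).

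The run near Srl, 47846 bp from its start and in no annotated gene (chr16:4475211-4475224), had 4.35, 44.4, 92.2, 35.4, 45.9, 40 and 50.0% in lines 1 to 7. Lines 1 and 3 were at the extremes and the other 5 lay between 35.4 and 50.0%.

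With 20 reads required in every library, the Plekha2, Gm35167, Zfp503 and Srl runs had no split CpG left, while the Gm26763 and Babam2 runs kept 3 each. This setting left out each CpG with fewer reads in any of the 16 libraries, and the levels of the others stayed the same. The split at a CpG left out was thus not measured anew at higher depth.

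The other 6 of the 12 largest runs had at most 1 line at 1 extreme throughout. In Grin2a, a glutamate receptor subunit gene, a run of 4 CpGs in a coding exon (chr16:9992272-9992322) had 8.63 to 62.8% in the MEF-2 lines and 75.0 to 97.8% in the MEF-1 lines. These ranges did not overlap, and the parental levels were 34.4 and 94.5%. The 4 CpGs were chosen for their MEF-2 levels, and how often the families part at other CpGs was not counted. Runs of 3 CpGs lay in Fam167b (5.83 to 69.2%), in Rd3, a regulator of guanylate cyclase in the retina (7.32 to 83.1%), and in Rgs3, a regulator of G protein signalling (1.80 to 71.2%). A further run of 3 lay in the noncoding gene Gm26573 (18.5 to 94.7%). The runs in Fam167b, Rgs3 and Gm26573 lie on chromosome 4, whose larger share of split CpGs is given below. With 20 reads required the runs in Rd3 and Gm26573 held no split CpG.

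Most splits rested on few lines. At 5917 split CpGs (46.6%) exactly 1 line was low and 1 high, at 3941 (31.1%) several were low and 1 high, at 2413 (19.02%) 1 was low and several high, and at 413 (3.26%) several lay at each end. Over the 7 lines, 42.2% of levels at split CpGs were at an extreme, 23.3% at 40 to 60%, and 34.5% elsewhere between. Just inside the thresholds, the lowest line was above 9% at 1097 split CpGs and the highest under 91% at 1166. Just outside, 653 CpGs missed the rule by a lowest line above 10 and up to 11%, and 691 by a highest line from 89% to under 90%. The median MEF-2 parental level was 42.5% (5th to 95th percentile 14.3 to 80). Of parental levels, 46.2% were from 10 to under 40%, 26.7% from 40 to under 60% and 27.1% from 60 to 90%.

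The lines contributed unequally. Lines 1 to 7 were low at 24.8, 19.5, 20.3, 22.2, 23.7, 28.8 and 22.9% of split CpGs. They were high at 22.6, 18.7, 8.58, 23.1, 24.3, 18.9 and 17.0%. Line 6 was the most often low and line 3 the least often high. They stood the same way over all CpGs meeting the parental conditions, where line 6 was low at 20.9% (the others at 18.9 to 20.3%) and line 3 high at 15.3% (the others at 19.9 to 21.4%). Without lines 1 to 7 in turn, 3248, 1951, 1260, 3085, 3407, 3241 and 1996 split CpGs no longer met the rule. Lines 1, 4, 5 and 6 thus each carried more splits than lines 2, 3 and 7. Of the 3085 of line 4, however, 980 lay on chromosome 4 beyond 20 Mb and only 2084 outside chromosome 4. Counts outside chromosome 4 were not made for the other lines. Among the 137 CpGs with every line at an extreme, 17 patterns occurred, led by line 1 alone high (37 CpGs), line 5 alone high (32), line 4 alone high (17) and line 6 alone high (12). Line 1 was the only low line at 8.

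Pairs of lines differed in how often they sat at the same end. Of split CpGs with both lines at an extreme, lines 2 and 7 shared it at 78.2% of 2080, lines 3 and 7 at 75.4%, lines 2 and 3 at 72.1% and lines 3 and 4 at 70.05%. Lines 4 and 7 shared it at 54.0% and lines 2 and 4 at 53.9%. The other 15 pairs shared it at 25.9% (lines 4 and 5) to 47.0% (lines 5 and 6). The grouping of lines 2, 3, 4 and 7 was read from these values, at CpGs chosen for a low and a high line, and was not tested. Line 3 was low at 20.3% of split CpGs and high at 8.58%, which bears on how often it could share an extreme. Their mean absolute differences were also smaller at comparison CpGs (14.3 to 16.4 points, against 17.5 to 18.7 for the other pairs), which the rule sorted by the same levels. At CpGs with a MEF-2 parental level under 10 or above 90%, which the rule did not sort by line, the ranges overlapped (4.05 to 4.36 against 4.33 to 4.53 points).

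Chromosome 4 held 1771 split CpGs, 5.46% of its CpGs meeting the parental conditions, while the other 15 chromosomes had 2.58 to 3.14% (median 2.90%). Beyond 20 Mb, a boundary known from earlier results of these data, 1713 of 30530 CpGs were split (5.61%), and 980 of them (57.2%) rested on line 4, against 19.1% on the other chromosomes. By the other 6 lines alone 2.40% were split there and 2.35% on the other chromosomes. At the CpGs meeting the parental conditions beyond 20 Mb, line 4 was at an extreme at 56.8% and at 40 to 60% at 9.45%, whereas the other lines were at an extreme at 33.6 to 40.8% and at 40 to 60% at 21.9 to 24.8%. On the other chromosomes line 4 had 39.3% and 23.7%. Its relative coverage of chromosome 4, scaled within the library and divided by the median MEF-2 clonal line, was 0.986, and of chromosome 10 it was 1.15. Line 3 had a relative coverage of 0.784 on chromosome 2 and 0.779 on chromosome 14, and it was at an extreme at 38.4 and 37.4% of the CpGs meeting the parental conditions there, against 32.1 to 34.4% on the other 14 chromosomes. Without chromosome 4, 10913 split CpGs and 14 runs remained.

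**Figure D2:**
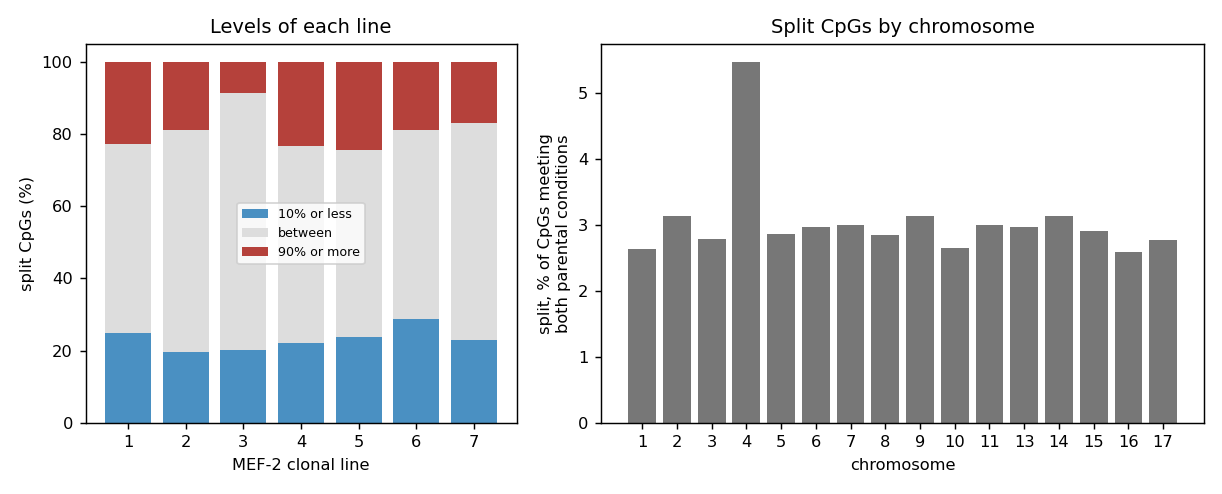
Left, percentage of split CpGs (y axis) at 10% or less, between, and at 90% or more in each MEF-2 clonal line. Right, split CpGs as a percentage of the CpGs meeting both parental conditions on each chromosome. Line 3 has the smallest high share (8.58%), and chromosome 4 (5.46%) stands above the others (at most 3.14%).

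Levels of measured neighbours followed the split over short distances. Neighbours at 1 to 20 bp had a mean level of 33.5% in the lines that were low at the split CpG and 58.9% in those that were high, a difference of 25.3 points (21.7 to 30.9 in single lines). The difference was 13.8 points at 21 to 50 bp, 9.84 at 51 to 100 bp, 9.88 at 101 to 200 bp, 7.49 at 201 to 500 bp, 3.09 at 501 to 2000 bp and 1.32 at 2001 to 20000 bp. In single lines the difference ranged from -1.40 to 5.64 points at 501 to 2000 bp and from -0.25 to 2.38 points at 2001 to 20000 bp, so neither had the same sign in all lines. Where a line was at an extreme at both CpGs, the extreme was the same in 74.1% of cases at 1 to 20 bp and in 51.9% at 2001 to 20000 bp. Neighbours within a few bases are often read by the same DNA fragments. Within runs and pairs of adjacent split CpGs, the extreme was shared in 90.01% of 841 line levels.

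**Figure D3:**
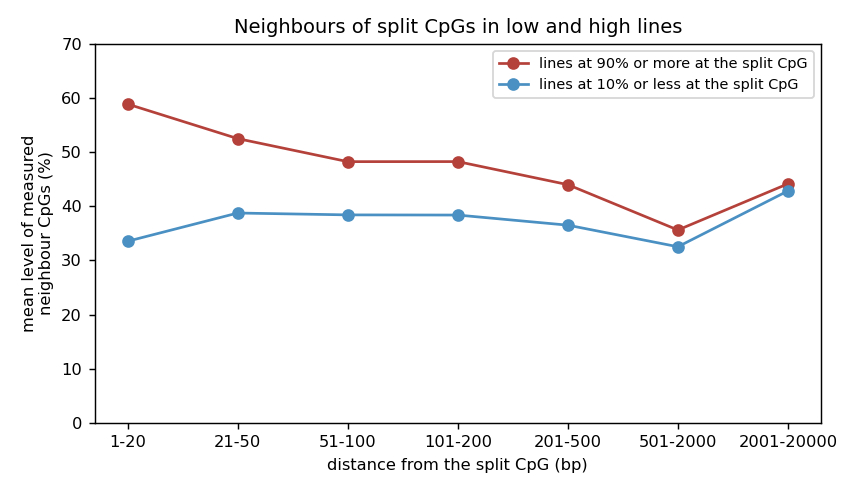
Mean methylation level (%, y axis) of measured CpGs around split CpGs by distance in bp (x axis), in the MEF-2 lines at 90% or more (upper line) and at 10% or less (lower line) at the split CpG. The lines lie 25.3 points apart at 1 to 20 bp and 1.32 points apart at 2001 to 20000 bp.

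Split CpGs were spread over many genes. Of 15422 protein-coding genes with a measured CpG in a transcript or within 1000 bp before a start, 4567 (29.6%) held a split CpG. Most of these, 2839, held 1, 1520 held 2 to 4, and 19 held 10 or more. By place, 1499 split CpGs (11.8%, against 11.8% of comparison CpGs) lay in a promoter, 1153 (9.09 against 7.94%) in a coding exon and 603 (4.75 against 5.03%) in another exon. A further 4419 (34.8 against 35.6%) lay in an intron, 1176 (9.27 against 9.98%) in a gene of another kind and 3834 (30.2 against 29.6%) in no annotated gene. The promoter and genic shares are tested below, and the others were not tested.

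Zfp503, a gene for a zinc finger transcriptional repressor (chr14:21983959-21989601), held 17 split CpGs among 52 that met the parental conditions and 184 measured. Over the 17, MEF-2 lines 1 to 7 had mean levels of 13.5, 36.3, 44.0, 13.4, 54.5, 89.3 and 10.3%, and the parental line had 21.8%. Line 6 was high at 15 of them, and lines 7, 1 and 4 were low at 14, 10 and 9. In the run of 3 CpGs in a coding exon printed above, lines 1 to 7 had 2.56, 50.8, 35.9, 4.55, 50.8, 96.8 and 2.70%. The other 35 CpGs that met the parental conditions had means of 25.1, 36.5, 35.9, 23.4, 42.1, 53.9 and 19.7%, with line 6 again highest and line 7 lowest. In the MEF-1 lines the 17 CpGs had means of 1.36 to 2.44% only. Without line 6, 1 split CpG was left in the gene, and with 20 reads required in every library 3 were.

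Other genes with many split CpGs were long or lay on chromosome 4. Gm20388, annotated over 4435 kb of chromosome 8, held 68 among 2512 CpGs meeting the parental conditions (2.71%), and Fgfr2, a fibroblast growth factor receptor gene annotated over 2961 kb, 33 among 866 (3.81%). Over all protein-coding genes the share was 3.11%, and both annotated spans hold CpGs far from the main transcripts. A further 6 of the 10 genes with most split CpGs, with ties placed by fewer measured CpGs, lay on chromosome 4: Camta1 (a calmodulin-binding transcription activator, 32 of 347 CpGs meeting the parental conditions), Rnf220 (a ubiquitin ligase, 20 of 248), Casz1 (a zinc finger transcription factor, 19 of 175), Igsf21 (an immunoglobulin superfamily protein, 14 of 193), Rap1gap (an activator of the Rap1 GTPase, 11 of 66) and Pax5 (the B cell transcription factor, 11 of 98). Without line 4 these held 12, 13, 9, 10, 5 and 4, and with 20 reads required 13, 7, 4, 3, 0 and 4. Dlgap4, a postsynaptic scaffold gene on chromosome 2, held 11 of 122, and Ank3 on chromosome 10, tied with the last of the 10 but with more measured CpGs, held 11 of 245.

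Among genes with at least 20 measured CpGs, the 6 with the largest share of split among measured CpGs had only 20 to 38 measured. Their counts are printed over the CpGs meeting the parental conditions, and by that share Zfp503 (17 of 52) stood higher. In Htr6, a serotonin receptor gene on chromosome 4, 6 of 26 CpGs meeting the parental conditions were split, with means of 14.5, 41.2, 51.1, 97.5, 7.91, 8.68 and 20.2% in lines 1 to 7. Line 4 was high at all 6, and without it none was split. The 20 other such CpGs of Htr6 had 16.6 to 30.1% in the 7 lines, with line 4 at 22.5%. In Mos, the kinase that drives meiotic maturation of oocytes, 5 of 22 were split (means of 3.83% in line 6 to 76.2% in line 4). Hspb9, a small heat shock protein gene of the testis, had 5 of 25 (20.4% in line 1 to 81.9% in line 5), Rd3 4 of 16 (5.49% in line 3 to 80.9% in line 5), Fam167b 4 of 14 (6.19% in line 4 to 60.5% in line 1) and Aard 3 of 11 (19.4% in line 6 to 78.2% in line 3). The lowest line was line 5, 6, 1, 3, 4 and 6 in these genes in turn. Mos and Fam167b also lie on chromosome 4, Mos before 20 Mb. With CpGs of under 20 reads in any library left out, Mos kept 2 split CpGs and Fam167b 3, and Htr6, Hspb9, Rd3 and Aard had none left.

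Gene lists were read against the 3.11% of CpGs meeting the parental conditions in all protein-coding genes that were split (7674 of 246807). Imprinted genes had 21 of 1360 split (1.54%), and genes of fibroblast identity 1 of 186 (0.538%). Collagens had 37 of 893 (4.14%), the DNA methylation machinery 11 of 238 (4.62%), developmental transcription factors 151 of 4417 (3.42%), zinc finger genes 115 of 3326 (3.46%), Hox genes 37 of 1241 (2.98%) and ribosomal protein genes 17 of 532 (3.20%). Blood genes had 15 of 425 (3.53%), germline genes 7 of 205 (3.41%), olfactory receptors 12 of 352 (3.41%), keratins 8 of 304 (2.63%) and senescence genes 7 of 245 (2.86%). No test was made over these lists, and their shares were not computed without chromosome 4.

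Single members show how the lines parted. At 2 split CpGs of Igf2, the imprinted growth factor gene, lines 1 to 7 had mean levels of 97.8, 47.7, 22.5, 49.0, 5.00, 79.4 and 47.1%. At 2 of Zdbf2, line 5 had 98.6% and the other lines 19.2 to 30.9%. At 2 split CpGs in the promoter of Uhrf1, which recruits the maintenance methyltransferase, lines 1 to 7 had 31.3, 2.27, 6.47, 19.8, 79.7, 73.1 and 6.44%, while the MEF-1 lines had 92.5 to 100%. The families did not overlap at these 2 of the 54 measured CpGs of Uhrf1, which were chosen for their MEF-2 levels. How often the families part at other CpGs was not counted. The 8 split CpGs of Zfp423 had 90.9% in line 2 and 25.6% in line 1, and at 77.2 to 91.7% the MEF-1 lines overlapped with line 2 alone. The 6 of Lhx1, a homeobox gene, had 22.1 to 71.7% in the MEF-2 and 4.47 to 16.6% in the MEF-1 lines, and the 6 of Pax7, a muscle stem cell transcription factor, 27.9 to 69.8% and 3.75 to 14.0%. Of the collagens, Col15a1 held 6 (34.2 to 67.3%), Col4a2 5 (8.53 to 57.3%) and Col26a1 5 (26.4 to 65.6%). Of the Hox genes, Hoxd3 held 8 (24.2 to 60.2%), Hoxc5 5 (11.9 to 67.1%) and Hoxd10 3 (4.73 to 54.2%).

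The remaining named members are given by the range of their means over the 7 MEF-2 lines. Line 5, the line most often high over all split CpGs (24.3%), was highest in the keratin and olfactory receptor genes named here, which are 2 of 6 and 3 of 9 with a split CpG and hold 2 each: Krt90 (4.35 to 96.2%), Krt75 (20 to 95%), Olfr1382 (30.7 to 93.5%), Olfr287 (27.8 to 94.4%) and Olfr658 (9.25 to 97.5%). Among the blood genes, Lck, a T cell kinase, held 4 (25.2 to 58.6%), and Ptprc, the gene for CD45, and Spi1, for the transcription factor PU.1, held 2 each (22.1 to 74.6% and 22.8 to 89.8%). Of the germline genes, the RNA helicase gene Ddx4 (21.9 to 96.8%) and Slc25a31 (29.0 to 78.1%) held 2 each. In the methylation machinery, Tet3, which oxidises methylated cytosine, held 3 (35.2 to 69.8%), and Zfp57, which guards imprints, held 2 in its promoter (2.22% in line 6 to 95.6% in line 1). Kcnq1, a potassium channel gene in an imprinted cluster, held 4 (7.69 to 59.1%), Zfp536 held 7 (31.4 to 67.4%), the cell cycle kinase gene Cdk6 2 (10.6 to 84.5%) and the ribosomal protein gene Rpl11 2 (45.7 to 95.2%). Of the list members given, Pax5, Pax7, Col15a1, Lck and Rpl11 lie on chromosome 4. Igf2, Lhx1, Col26a1, Krt90, Olfr658, Ptprc, Spi1, Slc25a31 and Rpl11 had no split CpG left when CpGs with under 20 reads in any library were left out.

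Properties of the sequence that the rule did not use were compared between split and comparison CpGs, with the 16 chromosomes as replicates and a two-sided exact sign-flip test. CpG density, the number of other CpGs within 100 bp with an upper limit of 30, was 4.98 at split and 4.73 at comparison CpGs, and 7.00 over the table. The difference per chromosome was 0.230 ± 0.319 (SD, n = 16), higher for split CpGs on 13 chromosomes (exact sign-flip test, p = 0.00952). By class, 2.71% of CpGs with no other within 100 bp were split, 2.82% with 1 to 2, 3.22% with 3 to 5, 3.30% with 6 to 10 and 3.45% with 11 or more. The difference ended when parental levels of 10 to 40, 40 to 60 and 60 to 90% were compared separately and averaged (-0.0148, exact sign-flip test, p = 0.834), and it turned to -0.786 with libraries thinned to 10 reads.

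Genic share was 60.5 against 60.4% (difference 0.0956 ± 2.72 points, SD, n = 16 chromosomes, exact sign-flip test, p = 0.890), and promoter share 11.8% in both sets (-0.157 ± 1.51 points, exact sign-flip test, p = 0.682). With 20 reads required in every library the promoter share was 1.23 points higher at split CpGs (exact sign-flip test, p = 0.0145), with extremes at 5 and 95% it was 1.37 points higher (exact sign-flip test, p = 0.0622), and averaged within parental levels the difference was -0.858 points (exact sign-flip test, p = 0.0363). CpGs with A or T on both sides made up 23.6 against 24.5% (-0.655 ± 1.74 points, exact sign-flip test, p = 0.155), and with extremes set at 5 and 95% they were 3.65 points rarer (lower on 15 of 16 chromosomes, exact sign-flip test, p = 9.16e-05). CpGs in repeats were 4.44 against 5.26% (-0.703 ± 0.976 points, lower on 14 of 16 chromosomes, exact sign-flip test, p = 0.0141), a difference that lost its call when averaged within parental levels (exact sign-flip test, p = 0.135). Mean coverage in the MEF-2 libraries, over which the levels of the rule are taken and which is therefore given with no test, was lower at split CpGs on all 16 chromosomes (36.6 against 41.5 reads, difference -4.91 ± 4.99, SD). Chromosome 17 had the largest difference (-22.2 reads), and the other chromosomes had -7.56 to -0.207 reads. The medians over all split and comparison CpGs were closer, at 30.9 and 33.4 reads. The part of coverage in the other differences was not tested beyond the settings given here.

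Each MEF-2 line was then left out in turn and the rule applied to the other 6, to ask how a line that played no part in the choice behaved. The left-out line was at an extreme at 27.5% ± 3.02 of CpGs split among the other 6 and at 39.9% ± 2.34 of the remaining 397207 to 399354 CpGs meeting the parental conditions (SD, n = 7), which include the split CpGs that rest on that line. All 7 differences were negative, with a mean of -12.4 ± 0.949 points (p = 0.0156 by the exact sign-flip test over lines, the lowest value that 7 lines allow). Parental levels of 10 to 40% gave -14.2 ± 2.43 points and levels of 60 to 90% gave -17.9 ± 0.640. At parental levels of 40 to 60% the difference turned to 3.75 ± 1.65 points, with 18.4% ± 2.91 against 14.7% ± 2.45, higher in 7 of 7 lines (exact sign-flip test, p = 0.0156 for each class). The left-out line was thus less often at an extreme where the parental level was low or high, and more often where it was near the middle. CpGs with the other 6 lines all at the same extreme fall into the remaining set by the rule itself. The differences therefore depend on how the sets were formed and are not read as a trait of split CpGs. The 7 choices also share lines, so the 7 differences are not independent.

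MEF-1 levels addressed whether the same CpGs part in the other family. The MEF-1 parental line was also at 10 to 90% at 65.3% of split CpGs and 57.6% of comparison CpGs, shares that carry no test because the rule used this level to leave out CpGs. With those CpGs kept, so that the rule used no MEF-1 level, the mean shares over chromosomes were 68.5 and 59.95%, a difference of 8.52 points with the same sign on 16 of 16 chromosomes (exact sign-flip test, p = 3.05e-05, the lowest value that 16 chromosomes allow). Among the 8282 split and 227972 comparison CpGs with such a MEF-1 level, MEF-1 lines were at an extreme at 31.3% ± 2.38 and 30.5% ± 2.44 (SD, n = 7). The difference of 0.750 ± 0.379 points was positive in 7 of 7 lines and carries no test for the same reason. With the rule free of MEF-1 levels it was 0.425 points (28.9 against 28.5%, positive in 7 of 7 lines, exact sign-flip test, p = 0.0156). All 7 lines were read at the same sets of CpGs, and the sets were not compared within parental levels. MEF-2 parental levels of 60 to 90% made up 27.1% of all split and 42.8% of all comparison CpGs. The difference was 0.532 points with extremes set at 5 and 95%, positive in 5 of 7 lines. It turned to -5.68 points with libraries thinned to 10 reads and to -5.75 points over all split and comparison CpGs, whatever the MEF-1 parental level.

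Of the split CpGs, 6260 (49.4%) varied between the 7 MEF-1 lines beyond read sampling (chi-square test of homogeneity, Benjamini-Hochberg adjusted p under 0.05). So did 27.6% of all CpGs in the table and 45.9% of comparison CpGs. The test takes each read as a separate molecule, and the part of duplicate reads in these shares was not tested. Per chromosome the share was 3.72 ± 2.18 points higher at split than at comparison CpGs (15 of 16 chromosomes), and with the rule free of MEF-1 levels it was 3.59 points higher (15 of 16, exact sign-flip test, p = 6.10e-05). With extremes at 5 and 95% the difference was -0.197 points (higher on 6 of 16, exact sign-flip test, p = 0.825). Among CpGs with a MEF-1 parental level from 10 to 90%, however, the share was lower at split CpGs, 56.9 against 59.5% (-2.52 points per chromosome, higher on 2 of 16, given with no test because the rule used this level). The SD of the 7 line levels averaged 15.04 points at split and 14.8 at comparison CpGs in MEF-1, while in MEF-2, where it was selected, it averaged 32.8 and 15.4.

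The same rule applied to MEF-1 gave 4620 CpGs, 0.384% of the table. Of the 12684 split CpGs of MEF-2, 167 (1.32%) also met it, beside 0.903% of comparison CpGs. These 167 are 3.61% of those of MEF-1. Only CpGs with a MEF-1 parental level of 10 to 90% could meet it, which were 65.3% of split and 57.6% of comparison CpGs. Among these it was met by 167 of 8282 split and 3576 of 227972 comparison CpGs.

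**Figure D4:**
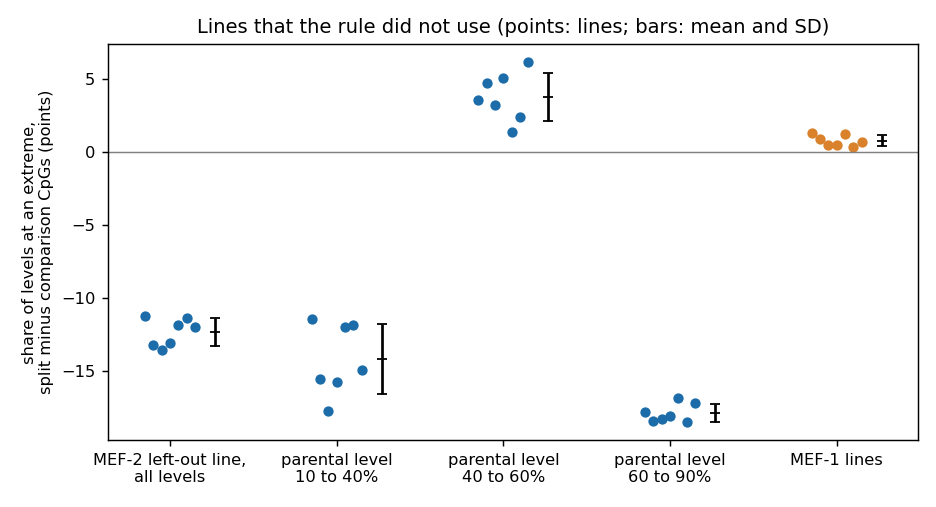
Share of levels at an extreme at split CpGs minus that at the other CpGs meeting the parental conditions (points, y axis) in single lines that the rule did not use, with the mean and SD (bars). Left-out MEF-2 lines lie under 0 over all parental levels (mean -12.4) and above 0 at parental levels of 40 to 60% (mean 3.75). These MEF-2 differences depend on how the sets were formed and are not read as a trait of split CpGs. CpGs with the other lines all at the same extreme fall into the other set by the rule itself. The MEF-1 lines are shown only over CpGs whose MEF-1 parental level also met the limits set for the MEF-2 parental level. There they lie slightly above 0 (mean 0.750), whereas over all split and comparison CpGs the mean MEF-1 difference was negative.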

How the data were processed

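Target capture bisulfite sequencing was analysed for 2 parental and 14 clonal fibroblast lines, grouped by the titles of their labels. According to the study's methods, the authors used Trim Galore (0.6.0) for trimming and Bismark for alignment to mm10, removed poorly mapped reads and read ends with position bias, and joined the calls of both strands. A step for PCR duplicates is not given in the sources used here. Reads without molecular identifiers are not independent molecules, so intervals and limits cover counting error only. Intervals of runs also pool calls of neighbouring CpGs, which can come from the same fragment. The deposited values are counts of methylated and unmethylated reads per CpG, with no normalization. Levels were recomputed from these counts, although the deposited table also gives each level as a percentage of the coverage. The table is limited to CpGs covered by 10 or more reads in every library, and it leaves out chromosomes 12, 18, 19, X and Y. The authors' neighbour CpG numbers in it were used only as an alternative density. The fidelity score, deposited by the authors as a fraction of clonal lines, and the neighbour similarity score, also deposited by the authors, were not used. Of its CpGs, 113 did not lie at a CpG of GRCm38, 1 of them split.

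The members, the gene lists and the comparisons were chosen with earlier results of these data known. Named are the 12 largest runs, the 10 protein-coding genes with most split CpGs, the 6 with the largest share among those with 20 measured CpGs, up to 3 genes of each list with the most split CpGs and at least 2, and 1 CpG for each number of high lines among CpGs with all lines at an extreme. The values of 1 of these runs are not reported here. Genes came from GENCODE M21, with the promoter as the 1000 bp before a start, and repeats were the lower-case bases of the reference. Relative coverage of a chromosome was scaled within each library and divided by the median MEF-2 clonal line. Lines were the replicates of the sign-flip tests over lines, and chromosomes those of the sequence properties, because neighbouring CpGs are not independent. The lines of a family may not be independent, since some were closer to each other, and p-values over them measure the spread between these lines only. Exact sign-flip tests are two-sided. The chi-square test over MEF-1 lines ran on all 1203687 CpGs with Benjamini-Hochberg adjustment at 0.05. It takes each read as a separate molecule. It was tried on simulated counts whose reads were drawn independently, so that trial does not cover duplicate reads. Analyses used Python 3.11.15, numpy 2.4.6, scipy 1.17.1 and pandas 2.3.3. Alternatives were other coverage minimums and thresholds, thinning to 10 reads, averaging within parental levels, other gene, promoter and density definitions, other run rules, and leaving out chromosome 4 or each line.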

Additional observations from a re-analysis of the deposited data

Results flagged for a closer look

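In 60 sets of 7 line values, a value was marked where its gap to the nearest other, divided by the whole range, exceeded Dixon's 95% critical value for 7 samples, and 6 values were marked. Chance marks about 1 in 20 sets. When left out, MEF-2 line 3 had the lowest share of levels at an extreme both at CpGs split among the other lines (20.98%, the next line 27.0%) and at the remaining CpGs meeting the parental conditions (34.6%, the next line 40.2%). At the CpGs of chromosome 4 beyond 20 Mb that met the parental conditions, line 4 had the highest share at an extreme (56.8%, the next line 40.8%) and the lowest share at 40 to 60% (9.45%, the next line 21.9%). The remaining 2 belong to items chosen for such a gap: line 5 at the Park7 CpG (96.4%, the next line 9.71%) and line 6 at the D430041D05Rik CpG (6.40%, the next line 92.2%).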

How the results depend on the processing

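Of 208 values under alternatives, 181 were taken as kept. Tested differences were kept when they stayed on their side of the threshold of 0.05. A change of sign counted against them only where either p-value was under it. The 181 therefore include differences that changed sign, such as the genic share (-0.467 to 0.729 points without single lines). Counts were kept within 1.5 times, and the share of line levels at an extreme within its SD over lines. The genic share passed the threshold under no alternative, and the share of line levels at an extreme was 36.9% at 5 and 95% and 45.7 to 46.9% without 1 MEF-2 line. The share of MEF-1 parental levels at 10 to 90%, which was tested with the rule free of MEF-1 levels, differed by 7.00 to 8.95 points under the other settings. The number of split CpGs was 5675 with 20 reads required, 4358 with extremes at 5 and 95% and 31383 with 10 reads per CpG, and 9277 to 11424 without 1 MEF-2 line. Split CpGs that varied between MEF-1 lines numbered 3165 with 20 reads and 1990 at 5 and 95%. Runs numbered 10 with 20 reads, 4 at 5 and 95%, 14 without chromosome 4, 1 with at least 5 CpGs, and 10 to 25 without 1 MEF-2 line. The difference for A or T on both sides became a call with 20 reads (-1.17 points, exact p = 0.0349), at 5 and 95% (-3.65) and without MEF-2 line 5 (-1.28 points, exact p = 0.0156), in a range of -1.28 to -0.529 points without single lines. Density turned with 10 reads (-0.786) and within parental levels (-0.0148). The promoter share turned with 20 reads (1.23 points) and at 5 and 95% (1.37 points, exact p = 0.0622), and passed the threshold within parental levels (-0.858 points, exact p = 0.0363). The repeat share lost its call within parental levels (-0.404 points) and without line 5, over a range of -0.867 to -0.614 points without single lines. The MEF-1 difference at extremes was 0.532 points at 5 and 95% and 0.578 points without MEF-1 lines 1, 4 and 5, where 4 lines allow no exact p under 0.125. It turned with 10 reads (-5.68) and over all CpGs (-5.75). The share that varied between MEF-1 lines turned among partly methylated MEF-1 levels (-2.52 points) and at 5 and 95% (-0.197 points, exact p = 0.825). The left-out line turned at parental levels of 40 to 60% (3.75). The cause was not tested in any of these. All p-values here are from exact sign-flip tests. The settings for the promoter share, the repeat share, coverage, line patterns, single parental classes and the share that varied were chosen after seeing the data.

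Of 616 counts of named genes and runs under alternatives, 413 stayed within 1.5 times. No paired analysis was possible because no test compared MEF-1 with MEF-2 lines, so the line numbers paired no samples. Split and comparison CpGs were differenced within a line or chromosome. Levels at split CpGs rest on 25 to 38 reads in the median library, which leaves single levels near 10 or 90% uncertain.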
